A study of Mus musculus with 6 samples.

Results

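Activating transcription factor 4 (Atf4) is a stress-induced regulator of amino acid supply, and 37 genes of its programme were followed here in mouse embryonic stem cells (mESC) without and with the Tet enzymes. The members were chosen by name, with earlier results of these data known. By function they were 9 genes of serine and one-carbon metabolism and 5 of other amino acid synthesis and sulfur metabolism. The others were 5 amino acid transporters, 12 stress factors and 6 tRNA synthetases. All 37 had a probe on the array and 36 were tested, of 21562 genes tested in all. The exception was Slc7a11, whose probe was well above background on 1 array only.

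TKO cells were compared with WT cells, each as 3 dishes on 1-colour Agilent arrays. The TKO dishes held cells with Tet1, Tet2 and Tet3 knocked out, made from the line BJ FF2 ES, and the WT dishes held that wild-type line itself. Both were cultured together in 2i medium on inactivated mouse embryonic feeders and were moved to feeder-free matrigel before collection, and each RNA sample came from a single dish. The labels do not give the number of TKO clones or the exons altered, so p-values measure only the spread between dishes.

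When uncharged tRNA, unfolded protein or other stresses switch on kinases of the translation factor eIF2alpha, general protein synthesis slows while Atf4 mRNA is translated more. Atf4 protein pairs with C/EBP and related factors and binds C/EBP-ATF response elements near genes that make serine, asparagine and proline, import amino acids and charge tRNAs. Because Atf4 is controlled largely at translation, its RNA level is not a measure of its protein. The comparison asks how the RNA of this programme differs between cells without and with the 3 Tet enzymes, which oxidise 5-methylcytosine in DNA.

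Each level is a log2 signal from which the array's own 75th percentile was subtracted, and differences are TKO minus WT on that log2 scale, with the standard error (SE) of the fit and n = 3 dishes per group. Adjusted p-values come from limma with Benjamini-Hochberg adjustment over all tested genes, and a gene is said to have risen or fallen where this value was under 0.05. Probe positions are on mouse build mm9. Fewer cells of a type and less RNA per cell cannot be told apart in such bulk samples.

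The programme did not move as a unit. Of the 36 tested members, 10 rose and 11 fell in TKO, while 15 did not pass the test. Across all tested genes 59.7% passed, 30.0% higher and 29.7% lower in TKO, and the members' 58.3% lay near that background. The members' median difference was -0.054, against -0.0083 over all tested genes, and their median absolute difference was 0.25, against 0.30. The TKO and WT values did not overlap for 29 members, 12 of them higher and 17 lower in TKO, beside 67.6% of all genes (33.5% higher and 34.1% lower). A change of at least 2-fold was found in Ddit4 upward and Atf5 downward, beside 7.41% and 6.25% of all genes in those directions.

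**Figure D1:**
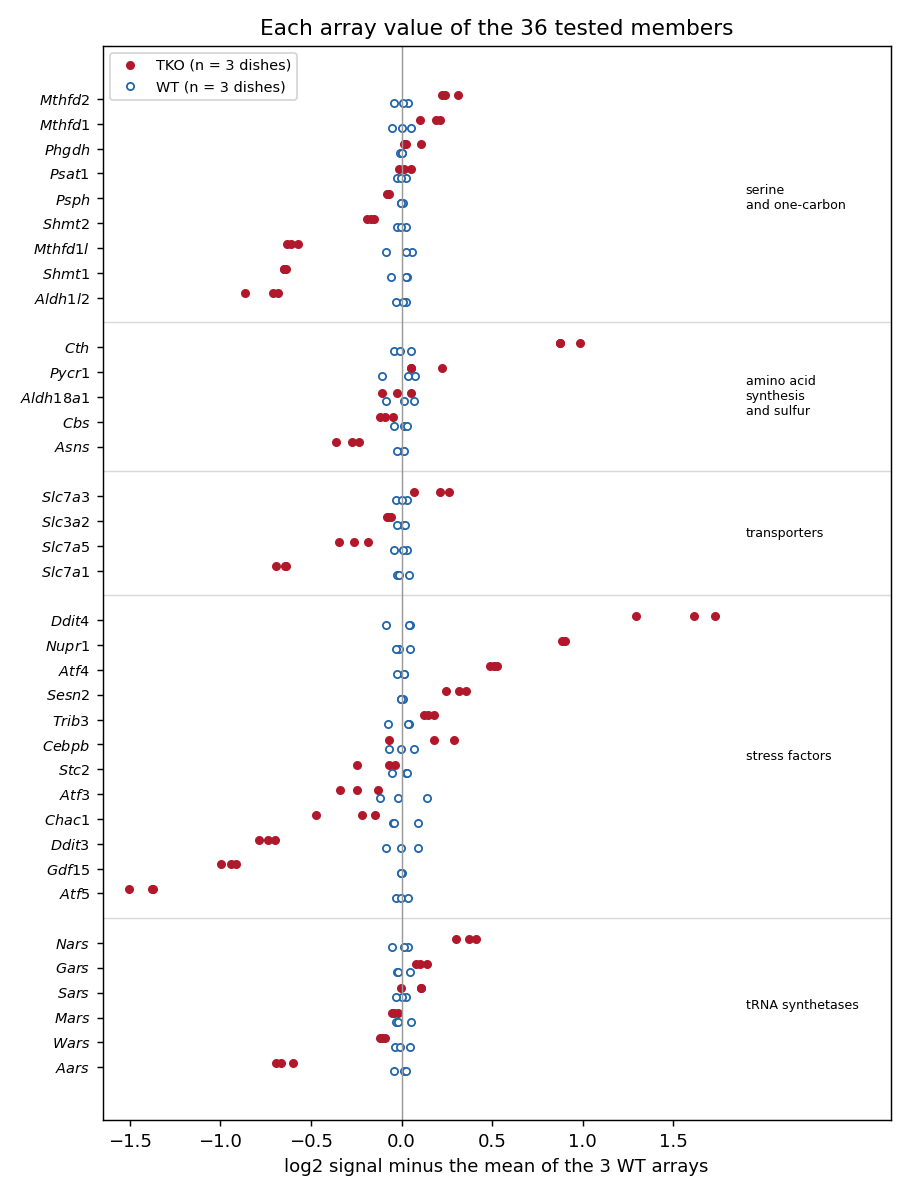
Each point is 1 array of 1 tested member, by function group (rows), as the log2 signal minus the mean of the 3 WT arrays (horizontal axis); filled red points are TKO and open blue points are WT dishes. The TKO points of Ddit4, Cth, Nupr1 and Atf4 lie to the right of all WT points, and those of Atf5, Gdf15, Ddit3 and Aldh1l2 to the left.

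Arrays of the same group resembled each other, with Pearson correlations across genes (not independent replicates) of 0.994 to 0.995 within TKO, 0.997 to 0.998 within WT and 0.963 to 0.967 between groups. TKO replicates 2 and 3 lay in the second array row of the slide, and the other 4 arrays in the first. Brightest-probe RNA of the targeted genes differed by -1.37 for Tet1, -2.93 for Tet2 and -0.24 for Tet3, the last with an adjusted p of 0.0904. All 10 embryonic stem cell markers were above background on every array, and 8 of them fell in TKO, with summed linear signals (in units of the array's 75th percentile) of 706 to 765 in TKO and 847 to 925 in WT. Of 14 feeder fibroblast markers, 13 were above background on every array and Lum on none. Among those 13, 7 rose and 3 fell, while the sums of the list were 165 to 178 in TKO and 192 to 195 in WT. Both marker counts stand against 30.0% higher and 29.7% lower over all tested genes. The brightest genes weigh most in a linear sum. Here these were Fn1 (mean log2 level 6.74 in TKO and 6.97 in WT) and Vim (4.75 and 5.25), both among the fallers. The other faller was Pdgfrb, with a difference of -2.26. The 7 risers were Col3a1 (0.66), Col1a1 (0.58), Col6a2 (0.49), Col1a2 (0.38), Postn (0.35), S100a4 (0.35) and Thy1 (0.27). The sums therefore do not show the direction of most feeder markers. The part of the stem cell and feeder markers in the results was not tested. Centring each array on its median in place of its 75th percentile moved the median over all tested genes by more than any other scaling tried, to -0.20. That array median was taken over all probes, dim ones included. With 51.9% to 58.5% of spots well above background, it lay near the background limit. The normexp background correction added an offset of 50 intensity units to each signal, which by itself shrinks log2 differences of dim probes. As a further alternative, the median level of each chromosome's tested genes was subtracted on each array. Beside the values of that alternative stand those with the chromosome's median difference subtracted. No WT array lay in the second row, so blocking on the row and keeping the first row alone both set TKO replicate 1 alone against WT. Under median centring 4 members rose and 19 fell, and among all called genes 29.4% were higher in TKO, against 50.3% as reported.

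The following promoter stretches show where the element that Atf4 heterodimers recognise lies in members of different groups. The motif TGATGNAAN was searched on both strands from 250 bases before to 50 bases after each start site, in RefSeq sequences of build GRCm38.p6. It was found in 9 of the 30 members with such a sequence, 30.0%, against 1215 of 27025 genes of the same table, 4.50%, and 1299 of 32851 windows, 3.95%. The 9 were Asns, Pycr1, Slc7a11, Atf3, Trib3, Nupr1, Chac1, Gars and Aars. Capitals mark the match, each sequence is written on the strand that reads TGATG first, and a match is a description of letters and not a bound site.
Asns (chr6:7693212-7693244, minus strand): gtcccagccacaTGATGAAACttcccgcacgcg
Nupr1 (chr7:126625561-126625593, plus strand): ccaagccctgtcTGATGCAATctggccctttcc
Chac1 (chr2:119351036-119351068, minus strand): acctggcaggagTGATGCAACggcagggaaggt
Atf3 (chr1:191183424-191183456, plus strand): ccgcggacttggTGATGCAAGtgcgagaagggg
Pycr1 (chr11:120643831-120643863, minus strand): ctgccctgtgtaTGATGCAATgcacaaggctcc
Gars (chr6:55037958-55037990, minus strand): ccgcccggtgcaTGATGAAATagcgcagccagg

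These 6 matches lay from 194 to 15 bases before the start site. Slc7a11 held a pair of matches on opposite strands, and the match of Trib3 lay after the start. Aars held a match before the start and another after it. Members carrying the element did not share a direction. Of the 7 members that rose and have a sequence, 2 held it (Nupr1 and Trib3). So did 2 of the 9 that fell (Asns and Aars) and 4 of the 13 that did not pass the test. The windows of risen members held a median of 21 CpG sites, those of fallen members 17 and those of uncalled members 23, beside 21 in 11416 tested genes with a window. Aldh1l2, Cth, Slc7a3, Slc7a5, Nars, Wars and Mars were not searched.

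Stress factors held both members that changed by at least 2-fold. Of the 12 genes, 5 rose, 3 fell and 4 did not pass, with a median difference of 0.0069. The counts of this and each later member group stand against 30.0% higher and 29.7% lower over all tested genes. The risers were Atf4 itself and the stress genes Ddit4, Nupr1, Sesn2 and Trib3, and the fallers were Atf5, Gdf15 and Ddit3.

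Atf4 (chromosome 15, 80087902 to 80087961) read 8.05, 8.03 and 8.01 in TKO and 7.54, 7.50 and 7.54 in WT. The lowest TKO value lay above the highest WT value, and the difference was 0.51 ± 0.034 (SE; 1.42-fold higher, adjusted p = 8.89e-05). A second Atf4 probe also rose, by 0.32 ± 0.052 (SE; adjusted p = 0.00335 in the fit over all probes). With median centring the difference of the first Atf4 probe was 0.31.

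Ddit4, also called REDD1, restrains the growth kinase complex mTORC1. It read 6.20, 5.77 and 6.09 in TKO and 4.52, 4.51 and 4.39 in WT (chromosome 10, 59412486 to 59412545). All TKO values exceeded all WT values, by 1.54 ± 0.120 on average (SE; 2.92-fold higher, adjusted p = 0.00015), and the TKO dishes differed among themselves by more than the WT dishes. The genes around Ddit4 were raised as well: the median difference of 87 tested genes within 5 Mb was 0.61. The part of that neighbourhood in the Ddit4 rise was not tested.

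Nupr1, a small chromatin-associated stress protein, read 4.64, 4.65 and 4.64 in TKO and 3.73, 3.80 and 3.72 in WT (chromosome 7, 133766978 to 133767037). These groups lay far apart relative to their spread, with a difference of 0.89 ± 0.037 (SE; 1.86-fold higher, adjusted p = 1.61e-05). The 175 tested genes within 5 Mb of Nupr1 had a median difference of 0.047.

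Sesn2 encodes a sestrin, a leucine-sensing inhibitor of mTORC1 signalling. It read 3.44, 3.54 and 3.50 in TKO and 3.18, 3.20 and 3.18 in WT, a difference of 0.31 ± 0.041 (SE; adjusted p = 0.00137) without overlap, which lost its call with median centring (0.11, adjusted p = 0.154). Trib3, a pseudokinase that feeds back on Atf4, differed by 0.15 ± 0.047 (SE; adjusted p = 0.035). Its call was lost in 13 of 17 alternative settings, and its direction turned with median centring (-0.044) and with chromosome median levels subtracted (-0.026), but not with the chromosome's median difference subtracted (0.15). Leaving out any single TKO replicate, WT replicate 2 or WT replicate 3 also ended the Trib3 call, at 0.11 to 0.17.

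Atf5, a bZIP factor whose translation is controlled much like that of Atf4, read 3.19, 3.32 and 3.32 in TKO and 4.67, 4.70 and 4.73 in WT (chromosome 7, 52067627 to 52067686). All TKO values lay more than 1 log2 unit below the WT values. The difference was -1.42 ± 0.051 (SE; 2.68-fold lower, adjusted p = 1.01e-05), and 92.0% of tested genes had a smaller absolute difference. The 195 tested genes within 5 Mb had a median difference of 0.061.

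Gdf15, a secreted stress hormone, read 1.38, 1.32 and 1.41 in TKO and 2.32, 2.33 and 2.32 in WT (chromosome 8, 73153293 to 73153352). The groups did not overlap, and the difference was -0.95 ± 0.037 (SE; 1.93-fold lower, adjusted p = 1.36e-05). Chromosome 8 as a whole had a median difference of -0.22 over 1173 tested genes. The Gdf15 difference was -0.60 with chromosome median levels subtracted and -0.73 with the median difference subtracted.

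Ddit3, or CHOP, is a C/EBP-family factor of prolonged endoplasmic reticulum stress. It read 0.58, 0.49 and 0.54 in TKO and 1.28, 1.37 and 1.20 in WT (chromosome 10, 126732518 to 126732821). The groups were separate, with a difference of -0.74 ± 0.057 (SE; 1.67-fold lower, adjusted p = 0.000145). Its immediate neighbour Mars, probed at 126733940 to 126733999, differed by -0.037 ± 0.039 (SE; adjusted p = 0.449).

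The other 4 stress factors did not pass the test. Atf3, an early stress-response repressor, differed by -0.24 ± 0.087 (SE; adjusted p = 0.0608), and Chac1, which degrades glutathione, by -0.28 ± 0.097 (SE; adjusted p = 0.0509). Chac1 read 3.31, 3.56 and 3.64 in TKO and 3.87, 3.74 and 3.74 in WT, so the groups did not overlap, and it passed in 8 of the 17 alternatives, among them median centring (-0.47) and leaving out TKO replicate 3 (-0.35). Without TKO replicate 1 the Chac1 difference was -0.18 and did not pass (adjusted p = 0.061). Atf3 also showed no overlap. Its difference was -0.025 with chromosome median levels and -0.12 with the median difference subtracted. Atf3 passed in 6 of 17 alternatives: median centring (-0.43), quantile normalization (-0.30), normexp (-0.21), probes above background on all 6 arrays (-0.24), and without TKO replicate 3 (-0.29) or WT replicate 1 (-0.30). The secreted glycoprotein Stc2 (-0.12 ± 0.067 SE) and the C/EBP factor Cebpb (0.13 ± 0.101 SE) overlapped between groups, and Cebpb passed without TKO replicate 1 (0.23). Stc2 lies on chromosome 11 and passed as lower in 2 alternatives. These were median centring (-0.31, adjusted p = 0.0343) and chromosome median levels subtracted (-0.56, adjusted p = 0.000846). With the chromosome's median difference subtracted Stc2 was at -0.46.

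**Figure D2:**
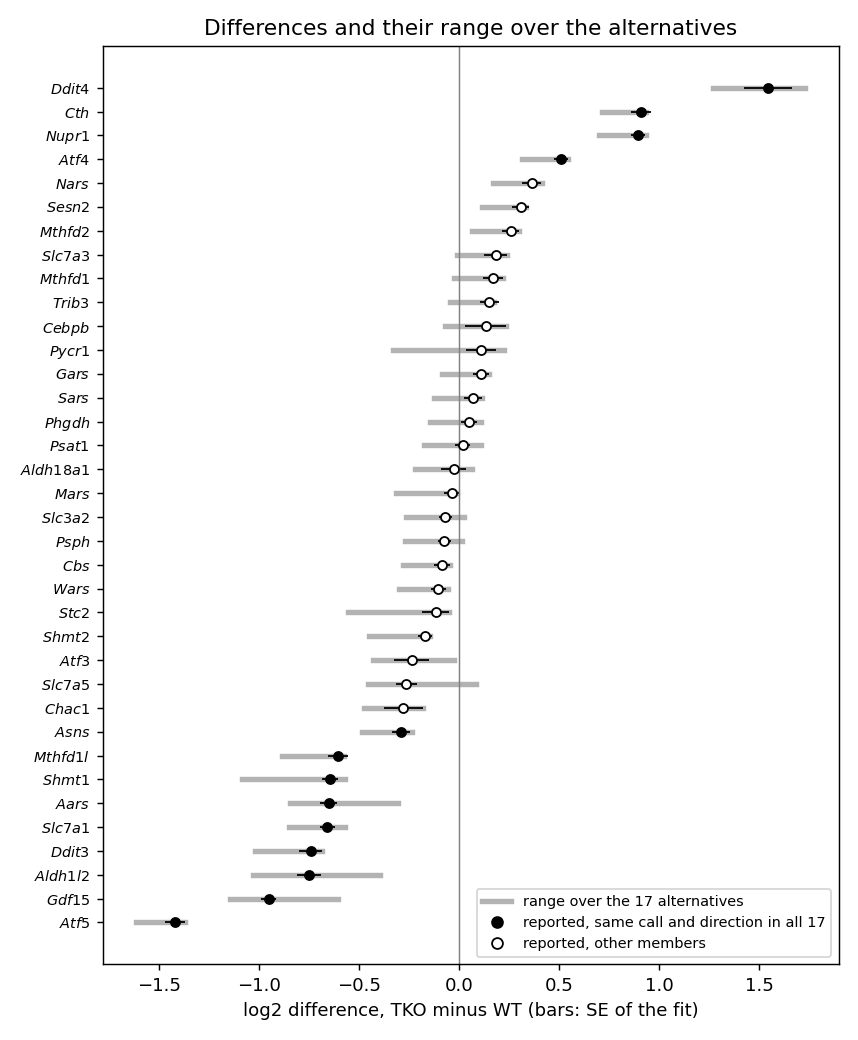
Points give each tested member's log2 difference, TKO minus WT, with the SE of the fit as thin bars, and grey bars give the lowest to highest value over the 17 alternative settings. Filled points mark the 13 members that were called in the same direction in every setting, 4 higher and 9 lower in TKO.

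Of 9 tested serine and one-carbon members 2 rose (22.2%), 4 fell (44.4%) and 3 did not pass, with a median difference of -0.074. Over all tested genes 30.0% rose and 29.7% fell. The 3 enzymes that make serine from 3-phosphoglycerate did not pass, and the rises and falls were in enzymes that handle the one-carbon units taken from serine.

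Phgdh, the first enzyme of serine synthesis, read 5.32, 5.23 and 5.22 in TKO and 5.20, 5.21 and 5.21 in WT. Its difference of 0.048 ± 0.040 (SE; adjusted p = 0.348) did not pass, although its other 2 probes differed by 0.12 (adjusted p = 0.0295) and 0.11 (adjusted p = 0.049) in the fit over all probes. Psat1, the transaminase, differed by 0.017 ± 0.037 (SE; adjusted p = 0.719), with overlapping groups and a second probe at 0.0040. Psph, the phosphatase, differed by -0.074 ± 0.031 (SE; adjusted p = 0.0875), and its second probe by -0.15 (adjusted p = 0.0134).

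Shmt1 and Shmt2 split serine into glycine and a one-carbon unit in the cytosol and in mitochondria. Shmt1 read 2.17, 2.17 and 2.18 in TKO and 2.85, 2.76 and 2.84 in WT (chromosome 11, 60603099 to 60603158). The groups were separate, with a difference of -0.64 ± 0.039 (SE; adjusted p = 5.85e-05), and the second Shmt1 probe differed by -0.50. This fall stood against its chromosome: 1616 tested genes of chromosome 11 had a median difference of 0.34, and the Shmt1 difference was -1.08 with chromosome median levels and -0.99 with the median difference subtracted. Shmt2 fell by less, -0.17 ± 0.034 (SE; adjusted p = 0.00718), reading 4.45 to 4.49 in TKO and 4.62 to 4.67 in WT. With TKO replicate 1 alone against WT the Shmt2 difference was -0.19. The Shmt2 call was lost with the first array row alone and kept with the row as a block.

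The mitochondrial folate enzymes moved in opposite directions. Mthfd1l, which releases formate from mitochondria, read 4.02, 3.98 and 3.96 in TKO and 4.65, 4.51 and 4.62 in WT (chromosome 10, 6190563 to 6190622). It was lower in every TKO dish, by -0.61 ± 0.050 (SE; adjusted p = 0.00019), and its second probe differed by -0.57. Aldh1l2, which oxidises mitochondrial formyl-folate, read -2.98, -2.96 and -3.13 in TKO and -2.30, -2.25 and -2.26 in WT (chromosome 10, 82950571 to 82950630). It too was lower in every TKO dish, by -0.75 ± 0.058 (SE; adjusted p = 0.000151), or -0.40 with normexp background correction.

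Mthfd2, the mitochondrial dehydrogenase and cyclohydrolase of folate, rose by 0.26 ± 0.043 (SE; adjusted p = 0.00335), reading 3.43, 3.50 and 3.41 in TKO and 3.22, 3.14 and 3.20 in WT. With median centring its difference was 0.063 (adjusted p = 0.455). The cytosolic trifunctional enzyme Mthfd1 rose by 0.17 ± 0.049 (SE; adjusted p = 0.0281), a call lost in 8 of 17 alternatives, with a turned sign of -0.025 under median centring. Leaving out TKO replicate 1, TKO replicate 3, WT replicate 2 or WT replicate 3 each ended the Mthfd1 call, at 0.15, 0.16, 0.14 and 0.17.

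Among the genes of other amino acid synthesis and sulfur metabolism, Cth rose, Asns fell and 3 of 5 tested did not pass, with a median difference of -0.026. Cth, cystathionine gamma-lyase, makes cysteine in the last step of transsulfuration. It read 3.81, 3.92 and 3.81 in TKO and 2.99, 2.90 and 2.93 in WT (chromosome 3, 157560183 to 157560242). The groups were separate, with a difference of 0.91 ± 0.049 (SE; 1.88-fold higher, adjusted p = 4.02e-05), and the second Cth probe gave 0.88. The median difference of the 18 tested genes within 5 Mb was -0.18. Cbs, which catalyses the preceding step, differed by -0.085 ± 0.040 (SE; adjusted p = 0.118).

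Asns, asparagine synthetase and a classical Atf4 target, read 7.26, 7.23 and 7.13 in TKO and 7.50, 7.51 and 7.47 in WT (chromosome 6, 7625171 to 7625228). The TKO values were all below the WT values, by -0.29 ± 0.045 (SE; adjusted p = 0.00252), and the difference was -0.48 with median centring. The proline synthesis genes Aldh18a1 (-0.026 ± 0.063 SE) and Pycr1 (0.11 ± 0.074 SE) overlapped between groups and did not pass, with adjusted p-values of 0.742 and 0.252. Pycr1 lies on chromosome 11, and it turned to -0.33 with chromosome median levels subtracted (adjusted p = 0.0114) and to -0.23 with the median difference subtracted.

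Of the transporters, 1 rose and 2 fell of 4 tested, with a median difference of -0.17. Slc7a1, the cationic amino acid transporter CAT1 for arginine and lysine, read 4.67, 4.67 and 4.62 in TKO and 5.29, 5.30 and 5.35 in WT (chromosome 5, 149139957 to 149140016). The groups were separate, with a difference of -0.66 ± 0.038 (SE; 1.58-fold lower, adjusted p = 5.1e-05). Its relative Slc7a3 (CAT3) rose by 0.18 ± 0.059 (SE; adjusted p = 0.0423), reading 5.11, 5.25 and 5.31 in TKO and 5.07, 5.01 and 5.04 in WT. That call was lost in 12 of 17 alternatives, and the difference was 0.071 with TKO replicate 1 alone against WT and -0.013 with median centring. Leaving out TKO replicate 2 or 3 or any WT replicate ended it too, at 0.14 to 0.20.

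Slc7a5 (LAT1), the large neutral amino acid transporter, fell by -0.26 ± 0.053 (SE; adjusted p = 0.00726), reading 2.51, 2.59 and 2.67 in TKO and 2.88, 2.86 and 2.81 in WT. Its probes disagreed: the second differed by 0.067 (adjusted p = 0.714), and the mean of both did not pass (-0.098, adjusted p = 0.215). It lies on chromosome 8, and the difference was 0.083 with chromosome median levels subtracted (adjusted p = 0.242) and -0.044 with the median difference subtracted. Slc3a2, the heavy chain CD98 with which Slc7a5 and Slc7a11 form transporters, differed by -0.070 ± 0.033 (SE; adjusted p = 0.118).

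Slc7a11 (xCT), the cystine importer, had 1 probe with 1 spot per array (chromosome 3, 50169700 to 50169759). Its processed signal was 2.69, 93.1 and 4.42 intensity units in TKO and 2.65, 2.39 and 2.88 in WT. Only TKO replicate 2 was well above background, and there the pixel spread of the spot was 67.6, against 8.70 to 11.4 on the other 5 arrays. Of 5 neighbouring spots that were dim on the other 5 arrays, 2 were also well above background on TKO replicate 2, the brighter at 139.8 units. No difference was tested for Slc7a11.

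Most tRNA synthetases among the members did not pass. Of 6 tested, Nars rose, Aars fell and 4 did not pass, with a median difference of 0.016. Aars, which charges alanine tRNA, read 5.63, 5.73 and 5.66 in TKO and 6.34, 6.28 and 6.35 in WT (chromosome 8, 113579376 to 113579434). The groups were separate, with a difference of -0.65 ± 0.043 (SE; 1.57-fold lower, adjusted p = 8.07e-05), and the tested genes within 5 Mb had a median of -0.26. The Aars difference was -0.30 with chromosome median levels and -0.43 with the median difference subtracted, and a second Aars probe was above background on 1 WT array only.

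Nars, for asparagine, read 4.03, 3.99 and 3.92 in TKO and 3.57, 3.66 and 3.63 in WT. It rose by 0.36 ± 0.047 (SE; adjusted p = 0.0012), and with median centring the difference was 0.17 (adjusted p = 0.127). Gars, Sars and Mars, for glycine, serine and methionine, differed by 0.11, 0.070 and -0.037. Mars passed as lower with median centring (-0.23, adjusted p = 0.0382) and with chromosome median levels subtracted (-0.32, adjusted p = 0.00181). It was at -0.030 with the chromosome's median difference subtracted. Wars, for tryptophan, differed by -0.11 ± 0.038 (SE; adjusted p = 0.0568), while its second probe fell by 0.31 on the log2 scale (adjusted p = 0.000717).

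**Figure D3:**
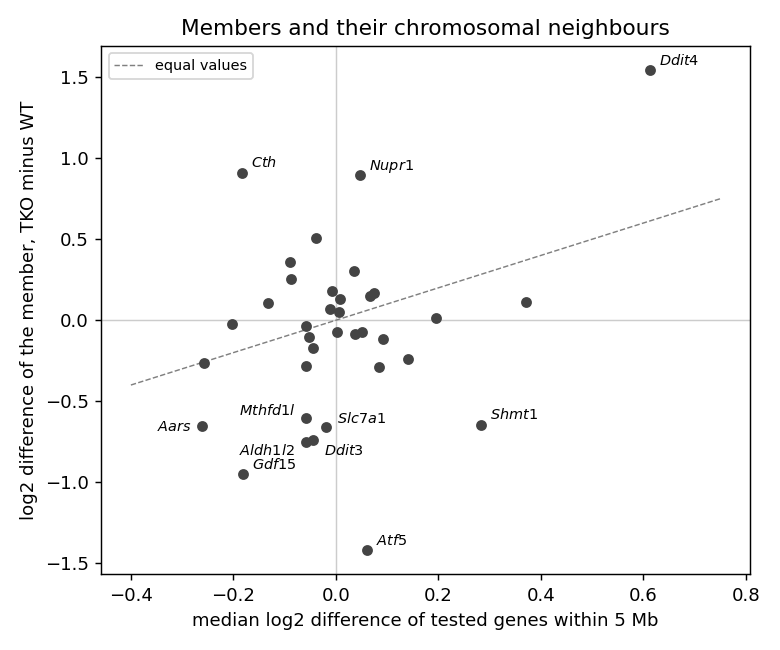
Each point is 1 tested member, with the median log2 difference of tested genes within 5 Mb of its probe on the horizontal axis and its own log2 difference on the vertical axis, both TKO minus WT. Ddit4 lies among raised neighbours (0.61) and Shmt1 below raised neighbours (0.28), whereas Atf5 and Nupr1 lie among genes whose median is near 0.

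Outside the members, 170 tested genes of the same pathways were read from lists drawn up from general knowledge. Earlier results of these data were known when the lists were chosen. Of the 170 genes, 65 rose, 61 fell and 44 did not pass, 74.1% called in all, beside 59.7% of all tested genes. The median difference of the 170 was 0.023. The counts of each list below stand against 30.0% higher and 29.7% lower over all tested genes. The plot of called shares by list gives each list beside all tested genes.

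Upstream of Atf4, 6 of 12 genes of eIF2alpha kinases, phosphatases and their partners rose and 3 fell, with a median of 0.14. Among the risers were Eif2b1, Eif2b2, Eif2b3 and Eif2b5 (0.22 to 0.27), genes of the partner eIF2B, which is neither kinase nor phosphatase. The phosphatase gene Ppp1r15b fell (-0.33 ± 0.041 SE, adjusted p = 0.000973), and Ppp1r15a did not pass (-0.028, adjusted p = 0.776). With median centring limma called 0 of the 12 higher, and 0 at an unadjusted p under 0.05; 3 rose in the first array row alone. The 4 kinases did not share a direction. The interferon-inducible kinase gene Eif2ak2 (PKR) fell (-1.08 ± 0.035 SE, adjusted p = 7.75e-06), as did the endoplasmic reticulum kinase gene Eif2ak3 (PERK; -0.54 ± 0.055 SE, adjusted p = 0.000433). The kinase genes for uncharged tRNA, Eif2ak4 (GCN2; 0.33), and for heme shortage, Eif2ak1 (HRI; 0.34), rose, though neither passed with median centring (0.13 and 0.15).

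Among 19 other Atf4 targets and partners, 8 rose and 7 fell, with a median of -0.11, and 5 rose with median centring. The hormone gene Fgf21 read -2.08, -1.97 and -1.98 in TKO and -4.14, -4.34 and -4.14 in WT. Its difference was 2.20 ± 0.070 (SE; adjusted p = 7.07e-06), or 0.94 with normexp and its offset of 50 units. The angiogenic factor Vegfa fell (-1.25 ± 0.073 SE, adjusted p = 5.33e-05). So did Cebpg, a binding partner of Atf4 (-0.29 ± 0.047 SE, adjusted p = 0.00289; -0.19 with normexp and -0.49 with median centring). Of 20 chaperone and unfolded protein response genes of the endoplasmic reticulum, 9 rose and 7 fell, with a median of 0.11. With median centring 5 rose, and with chromosome median levels subtracted 4 fell. Their factor Xbp1 rose by 0.71 (0.27 with chromosome median levels and 0.37 with the median difference subtracted) and Sdf2l1 fell (-0.63).

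The list of 16 genes of other cytosolic synthetases leaned downward, with 1 riser, 9 fallers and a median of -0.14. Fewer fell with TKO replicate 1 alone against WT. The list includes Aimp1 (0.021) and Aimp2 (-0.024), which encode partner proteins of synthetases and did not pass. Cars, which did not pass (-0.018), stands both here and among the other Atf4 targets. The histidine enzyme gene Hars read 2.12, 2.07 and 2.11 in TKO and 3.85, 3.78 and 3.90 in WT, a difference of -1.74 ± 0.045 (SE; 3.35-fold lower, adjusted p = 4.06e-06). The subunits of the phenylalanine enzyme, Farsa and Farsb, fell together (-0.71 and -0.61, or -0.36 and -0.40 with chromosome median levels and -0.49 and -0.49 with median differences subtracted), and the riser was Dars for aspartate (1.05 ± 0.052 SE, adjusted p = 2.93e-05). The 17 mitochondrial synthetase genes held 4 risers and 6 fallers, with a median of 0.019, and 2 risers with median centring. Lars2 rose by 1.37 and Cars2 fell by 1.26 on the log2 scale.

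Of 27 other one-carbon and folate genes 9 rose and 9 fell, with a median of -0.028. Ahcy, which clears S-adenosylhomocysteine, rose by 2.36 ± 0.041 (SE; adjusted p = 1.66e-06) at its brightest probe and by 0.95 over the mean of its probes. Aldh1l1, the cytosolic counterpart of Aldh1l2, fell as that member did (-1.16 ± 0.088 SE, adjusted p = 0.00014), and so did the folate gene Mthfs (-1.03).

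The 21 other amino acid transporters leaned upward, with 13 risers, 4 fallers and a median of 0.26, and under median centring 7 rose and 5 fell. Slc7a9, a light chain for cystine and dibasic amino acids, read -1.36, -1.40 and -1.53 in TKO. No WT array measured it well above background. The fitted difference was 4.33 (adjusted p = 4.83e-05), and with a floor set under the WT values it was 15.5-fold higher in TKO. With normexp and its offset of 50 units the fitted Slc7a9 difference was 1.43, smaller than with either of these. For the 15.5-fold value the TKO mean was divided by a floored WT mean. In it each array entered with the probe's signal or with the dimmest well-measured probe of that array, taking the higher. The dimmest well-measured probe is not a detection limit, so 15.5-fold is not a strict lower bound. Slc43a1 (LAT3) read 2.22, 2.15 and 2.26 in TKO and -0.32, -0.50 and -0.48 in WT, a difference of 2.65 ± 0.064 (SE; adjusted p = 3.57e-06). Slc7a8 (LAT2), which 2 of 3 WT arrays measured above background, rose by 3.07 ± 0.076 (SE; adjusted p = 3.75e-06; 1.23 with normexp). The glutamate and aspartate transporter Slc1a1, which 2 of 3 TKO arrays measured above background, fell (-2.70 ± 0.178 SE, adjusted p = 7.94e-05; -1.47 with normexp).

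Of 24 other genes of amino acid metabolism, 8 rose and 12 fell, with a median of -0.14. With median centring 4 rose, and 7 fell without WT replicate 1, without WT replicate 3 or with the replicate number as a block. Of 15 amino acid sensing genes, 7 rose and 4 fell, with a median of 0.13. The sestrin genes Sesn1 (1.39 ± 0.073 SE, adjusted p = 3.61e-05) and Sesn3 (1.15 ± 0.040 SE, adjusted p = 9.82e-06) rose as Sesn2 did. The S6 kinase gene Rps6kb1 rose by 1.06 (0.62 with chromosome median levels and 0.72 with the median difference subtracted), and the lysosomal regulator Tfeb fell (-1.34 ± 0.046 SE, adjusted p = 8.64e-06).

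**Figure D4:**
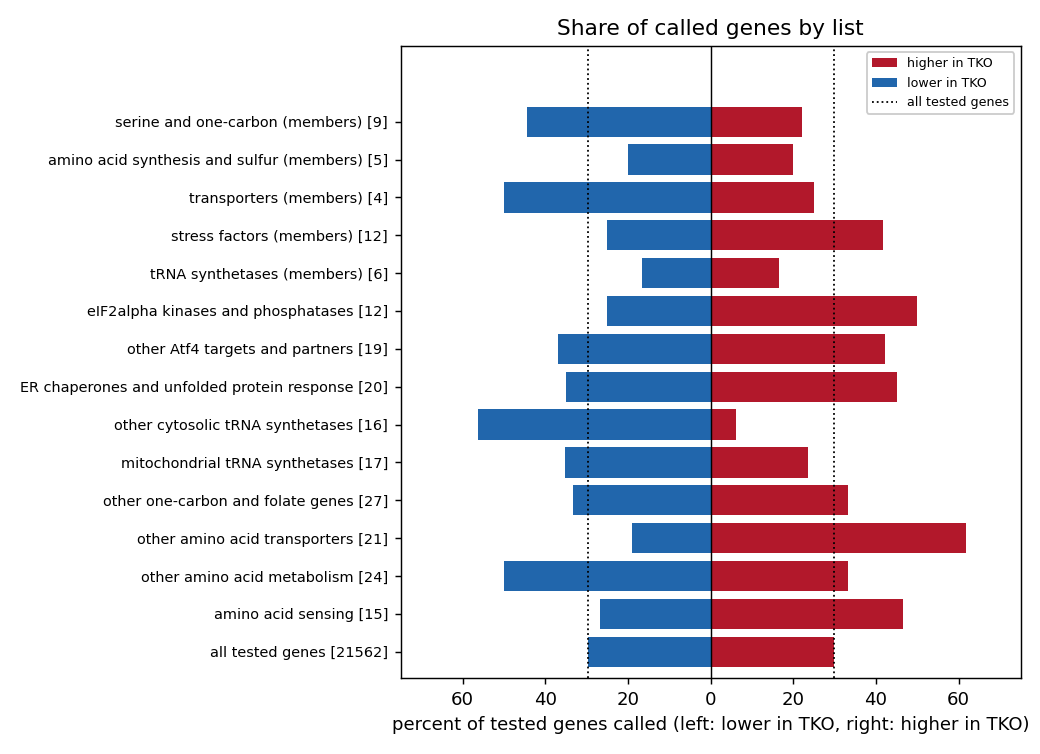
Bars give the percent of each list's tested genes (number in brackets) that rose (right, red) or fell (left, blue) in TKO, and dotted lines give the shares over all tested genes, 30.0% and 29.7%. The other amino acid transporters extend to 61.9% on the right. The list of other cytosolic tRNA synthetases, with Aimp1 and Aimp2 included, extends to 56.3% on the left.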

How the data were processed

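RNA of 3 TKO and 3 WT dishes was measured. The submitters' processing notes name Agilent Feature Extraction 11.5.1.1. Its deposited scanner files hold intensity values: a mean signal, a local background and a processed signal, which per the file headers was corrected for background and detrended but not scaled between arrays. They also hold deposited flags per spot of 0 or 1 (other unit). A deposited table of log2 values, whose scale, centring and direction the sources used here do not state, matched the log2 processed signal shifted by a constant per array (Pearson r = 1 on each array across probes). Its column medians were -3.90, -3.74 and -3.82 for TKO and -3.97, -3.97 and -4.03 for WT, and it served as an alternative.

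Control and outlier spots were left out, spots of a probe were averaged as log2 values, and the log2 75th percentile of each array (366.9 to 412.9 intensity units) was subtracted. The share of spots well above background was 51.9% and 52.2% on TKO replicates 2 and 3, and 54.9% to 58.5% on the other arrays. TKO replicates 2 and 3 also had a wider spread of negative control spots (14.1 and 15.1, against 7.23 to 8.95). They had more outlier spots as well (160 and 150, against 100 to 104). The part of these array differences in the results was not tested. On every array 0 spots were saturated. The number of arrays limits precision. Probes well above background on at least 3 of 6 arrays were kept (30734), and the kept probe with the highest mean stood for the gene; 47 of the members' 49 probes were kept. Of the tested genes 4 had a missing array, none of them a member. TKO and WT were compared with limma 3.58.1 (lmFit, eBayes, two-sided) in R 4.3.3 over 21562 genes. Gene names follow the array design. Promoters came from the RefSeq table of build GRCm38.p6.

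The members and lists were chosen with earlier results of these data known. Every member is named, with up to 3 called genes higher and 3 lower per other list considered, of which a selection is printed. All arrays shared 1 slide and 1 scan. Same-numbered TKO and WT arrays did not deviate together (correlations -0.07, -0.02 and 0.01), so numbers were not taken as pairs. A total of 17 alternatives were run, 16 planned and 1 added after seeing the data (the first array row alone).

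On simulated data of 21558 genes with 200 changed, 67% of changes of 1 log2 unit and 54% of 0.5 were called. Median estimates were 0.99 and 0.50, and 5 of 126 calls were false. Of the changes of 1 log2 unit, 43 of 43 were called in genes below the median spread and 24 of 57 above it. In the data 59.7% of tested genes were called, which makes the adjusted threshold less strict than in the simulation. The simulated shares therefore do not carry over to the data. Required shares of 90% and then 80% called were tried first and not met; the criterion used, on bias and false calls, was set after the simulation was seen.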

Additional observations from a re-analysis of the deposited data

How the results depend on the processing

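Of the 21 called members, 13 kept call and direction in all 17 alternatives: Shmt1, Mthfd1l, Aldh1l2, Asns, Cth, Slc7a1, Atf4, Atf5, Ddit3, Nupr1, Ddit4, Gdf15 and Aars. None of the alternatives subtracted the median of neighbours within 5 Mb, which was 0.61 around Ddit4, against -0.0074 for its whole chromosome. The other 8 lost the call in at least 1, and 12 of the 15 uncalled members were called in at least 1; the cause was not tested. Median centring gave 3874 higher genes in all, 36 higher other pathway genes, and 4 higher and 19 lower members. By group it gave 3 higher and 6 lower stress factors, 3 lower tRNA synthetases and 2 lower amino acid synthesis genes. In limma it called 0 higher serine and one-carbon genes, transporters or tRNA synthetases, and 0 of these were higher at an unadjusted p under 0.05. It turned Phgdh (-0.146), Psat1 (-0.178), Mthfd1 (-0.025), Pycr1 (-0.0844), Slc7a3 (-0.013), Cebpb (-0.062), Trib3 (-0.044), Sars (-0.124) and Gars (-0.088). Subtracting chromosome median levels on each array turned Psph (0.015), Aldh18a1 (0.066), Pycr1 (-0.329), Slc7a5 (0.083), Slc3a2 (0.022), Cebpb (-0.044), Trib3 (-0.026), Calr (0.073) and Slc7a6 (0.074). Of these 9, Pycr1 alone turned (-0.23) when the chromosome's median difference was subtracted instead. Chromosome median levels left 1 lower transporter and gave 5 lower stress factors, 2 higher and 2 lower synthetases and 2 lower amino acid synthesis genes. Blocking on array row and using the first row alone both rest on TKO replicate 1 alone, assumed to vary like the other arrays, and turned Psat1 (-0.014), Aldh18a1 (0.054), Cebpb (-0.071) and Sars (-0.00296), and left 1 higher serine gene, as did no filter on dim probes. Slc7a3 was the only transporter called higher, and limma called 0 with median centring, the row block, the first row alone, chromosome median levels subtracted, the replicate block, the deposited table and no filter; 1 was higher at an unadjusted p under 0.05 in the last 2 and 0 in the others. Psat1 turned with normexp (-0.010) and the deposited table (-0.01), and Eif4e with the mean of its probes (0.12). There were 5 lower stress factors with normexp and with probes above background on all 6 arrays. There were 2 lower synthetases with normexp, the deposited table and the mean of probes, which left 1 lower transporter, and 2 higher with quantile normalization. Leaving out each array in turn gave 1 to 2 higher serine genes, 0 to 1 higher transporters (limma), 3 to 5 lower stress factors, 7 to 9 higher and 11 to 13 lower members, and an Aldh18a1 difference of -0.068 to 0.014. With replicate number as a block 11619 genes were called, against 12862, and Slc7a3 (adjusted p = 0.0951), Trib3 (0.079) and Jdp2 (0.0534) lost the call. Among named genes outside the members, 865 of 881 gene and setting pairs kept call and direction.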
